A study of Homo sapiens with 4 samples.

Results

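The genes described here are 10 genes of the inflammasome and of the gasdermin family: the sensors NLRP1, NLRP3 and AIM2, the adaptor PYCARD, the caspases CASP1, CASP4 and CASP5, and the gasdermins GSDMB, GSDMC and GSDMD. They were chosen by name, through the symbols that GENCODE release 29 gives to the Ensembl identifiers of the table, and all 10 were found among its 58735 genes. The cells were A549, an established human lung adenocarcinoma line, infected with a CRISPR lentivirus (lentiCRISPRv2-hygro) and selected with hygromycin. The control group had 2 libraries labelled as non-targeting control (sgNTC), and the other group had 2 libraries labelled UHRF1 KO (sgUHRF1), so both groups carried the vector and passed the drug selection. The labels do not say whether the cells were pools or clones, nor whether a group's libraries are separate cultures; the spread behind the p-values may thus be technical.

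An inflammasome is a protein complex that assembles in the cytosol when a sensor meets a microbial or danger signal. Sensors of the NLR family and the DNA-binding AIM2 recruit caspase-1, mostly through the adaptor ASC, which PYCARD encodes, while caspase-4 and caspase-5 bind bacterial lipopolysaccharide themselves. The active caspases cut gasdermin D, whose released end forms pores in the plasma membrane and causes the lytic death called pyroptosis, and caspase-1 also matures the cytokines IL-1β and IL-18. NLRP1 is known as the main inflammasome sensor of human epithelial cells, NLRP3 as that of myeloid cells. UHRF1 keeps CpG methylation in place when DNA is copied. RNA levels do not measure protein, cleavage or pore formation, and none of these was measured.

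Totals ran from 18604598 to 23977168 counts per library, and 17030 genes passed the filter on low counts and were tested. Levels are in CPM, read counts divided by the TMM-scaled size of the library, and a level with an error is the mean ± SD of 2 libraries. Fold changes compare UHRF1 KO with control and carry an approximate standard error (SE). A gene was called when the adjusted p of edgeR's quasi-likelihood test was under 0.05. UHRF1 itself had 97.6 and 98.9 CPM in control and 39.1 and 40.2 CPM in UHRF1 KO, so the targeted transcript was lower but present, and its level says nothing of the protein.

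Of the 10 genes, 7 passed the filter and were tested, and 5 of these were called higher in UHRF1 KO: NLRP1, AIM2, PYCARD, CASP1 and CASP4. For comparison, 32.0% of all genes tested were called higher and 30.1% lower. That balance rests on the scaling: 5445 genes were higher and 5118 lower, but 3543 and 8220 once GC and length trends were removed from each library and its mean was set equal (recentred). NLRP1, AIM2, CASP1 and CASP4 were at least 2-fold higher, as were 15.4% of all genes tested. GSDMB and GSDMD did not pass the test, and 0 of the 7 were called lower with edgeR, where 0 were lower at an unadjusted p under 0.05 and 0 with DESeq2 or limma-voom. NLRP3 and GSDMC had too few counts to be tested and CASP5 had 0 counts in all libraries. AIM2 and CASP1 passed the filter only because of their counts in UHRF1 KO and could hardly be tested without being higher there, so the count of 5 follows in part from the filter.

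**Figure D1:**
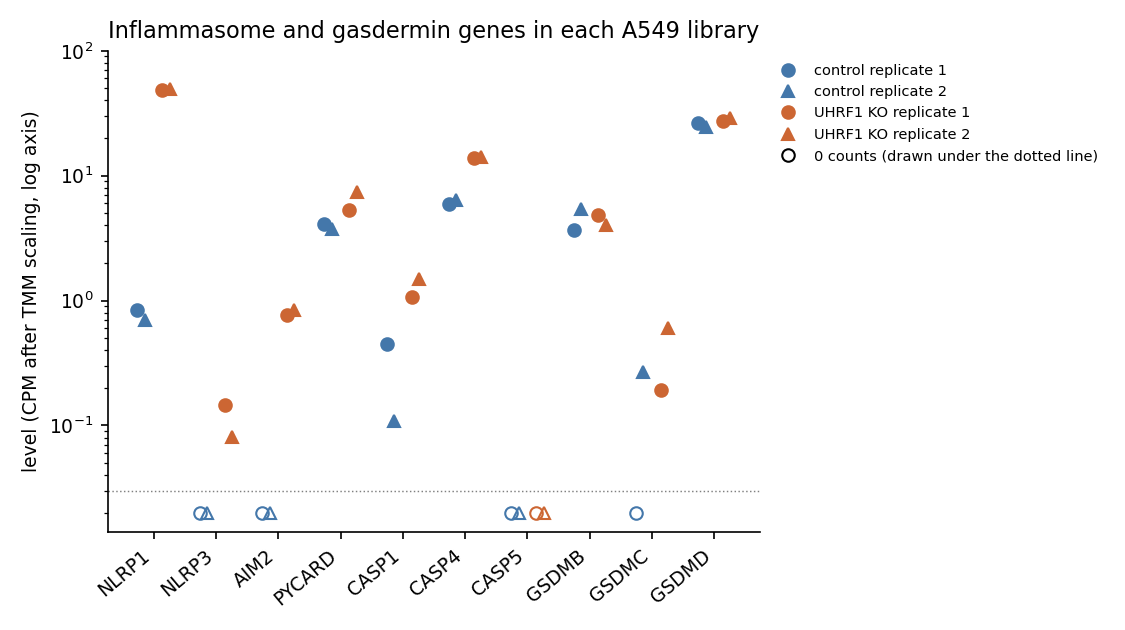
Level of each of the 10 genes in each library, in CPM after TMM scaling on a log axis; circles are replicate 1 and triangles replicate 2 of control (blue) and UHRF1 KO (orange), and open symbols under the dotted line are 0 counts. NLRP1 lies at 0.841 and 0.701 CPM in control and at 48.3 and 49.1 CPM in UHRF1 KO, while the points of GSDMB mix between the groups.

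Among the sensors, NLRP1 (ENSG00000091592, GRCh38 chromosome 17, 5499427 to 5619424, minus strand) went from a low but detected level to a clear level. It had 15 and 13 counts in control and 1002 and 1221 in UHRF1 KO, which is 0.841 and 0.701 CPM against 48.3 and 49.1 CPM. Both UHRF1 KO libraries were far above both controls and close to each other. The log2 fold change was 5.97 (SE 0.14), or 62.8-fold higher (edgeR adjusted p = 5.56e-27). It stayed between 5.64 and 6.09 over the 13 alternative settings, all of which called it. Only 0.361% of the 50-base stretches in its transcripts also occur in transcripts of other genes. NLRP1 differs from other NLR sensors in cutting itself after translation, and its free C-terminal end seeds the complex.

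AIM2 (ENSG00000163568, chromosome 1, 159062484 to 159147096, minus strand), which binds double-stranded DNA in the cytosol, was not detected in control and was low in UHRF1 KO. It had 0 counts in both controls and 16 and 21 counts in UHRF1 KO, or 0.772 and 0.845 CPM. Set against 3 counts in the 2 controls combined (0.0825 CPM), the limit that a count of 0 allows, AIM2 was at least 9.80-fold higher (edgeR adjusted p = 6.22e-06). It was called in the 12 alternative settings that tested it, with adjusted p up to 0.00156, and a minimum of 1 CPM in 2 libraries removed it. None of its 50-base stretches occurs in transcripts of another gene.

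NLRP3 (ENSG00000162711, chromosome 1, 247416156 to 247449108, plus strand) was at the limit of detection. It had 0 counts in both controls and 3 and 2 counts in UHRF1 KO, where 3 counts in 1 library are worth 0.121 to 0.168 CPM. Without the filter its edgeR adjusted p was 0.247. A difference of this size was not detectable at this depth.

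Promoter sequences from RefSeq (GRCh38.p14, 250 bases before to 50 after a gene's start) were read for 5 of the 10 genes: AIM2, NLRP3, CASP4, CASP5 and PYCARD. NLRP1, CASP1 and GSDMB had no usable sequence in the set that was read. GSDMC and GSDMD were left out of this step beforehand, so the 5 is not purely the outcome of a search. They differ widely in CpG dinucleotides, the sites at which DNA methylation is written. The PYCARD window holds 23 CpG, against 5 in NLRP3, 3 in CASP4, 2 in AIM2 and 0 in CASP5, where the median of 35114 promoters of this length is 14 and the quartiles are 4 and 28. AIM2 and CASP4, which were called higher, and CASP5, which was not detected, all lie below the lower quartile. The parts before the start site of AIM2 (chr1:159076902-159077016, minus strand, 115 bases that no annotated exon covers) and of CASP5 (chr11:105023169-105023418, minus strand, 250 bases) are shown because both are poor in CpG in a gene that was read and in one that was not, with each CpG in capitals:
AIM2: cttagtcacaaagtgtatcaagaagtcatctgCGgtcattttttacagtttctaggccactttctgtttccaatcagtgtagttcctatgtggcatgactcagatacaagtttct
CASP5: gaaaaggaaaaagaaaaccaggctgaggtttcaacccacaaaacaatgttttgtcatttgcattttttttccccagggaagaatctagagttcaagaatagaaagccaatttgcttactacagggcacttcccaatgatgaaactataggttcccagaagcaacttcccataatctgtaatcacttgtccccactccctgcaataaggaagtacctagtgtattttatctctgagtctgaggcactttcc
The AIM2 stretch holds 1 CpG and the CASP5 stretch 0. Methylation was not measured in this series. The RefSeq start sites of AIM2, CASP4, PYCARD and, by 17 bases, NLRP3 lie inside the spans that GENCODE gives these genes, so other start sites exist. Annotated exons cover all 250 bases before the RefSeq start of PYCARD and CASP4, 135 of those of AIM2 and 17 of those of NLRP3. The CpG counts of these windows thus include exon sequence upstream of the start.

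PYCARD (ENSG00000103490, chromosome 16, 31201485 to 31203450, minus strand), the adaptor that links sensors to caspase-1, was called modestly higher. It had 73 and 69 counts in control and 110 and 184 in UHRF1 KO, or 4.09 and 3.72 CPM against 5.30 and 7.40 CPM. The groups did not overlap, but UHRF1 KO replicate 2 was well above replicate 1. The log2 fold change was 0.71 (SE 0.19), or 1.64-fold higher (edgeR adjusted p = 0.00132). The gene was no longer called without UHRF1 KO replicate 2 (0.44, edgeR adjusted p = 0.108), with DESeq2 (0.68, adjusted p = 0.0815) and with GC content and length trends removed (0.36, edgeR adjusted p = 0.0825, and 0.06 with adjusted p = 0.774 when libraries were also recentred), while the other 9 alternatives gave adjusted p of 3.98e-05 to 0.0101. Exons of the antisense gene PYCARD-AS1 cover 59.7% of its exon bases and that gene had 0 counts in all 4 libraries, so the PYCARD counts depend on how reads from the shared part were assigned, which the labels do not state.

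The inflammatory caspases lie side by side on chromosome 11, and 2 of the 3 were called higher. CASP4 (ENSG00000196954, 104942866 to 104969436, minus strand), the lipopolysaccharide receptor of the non-canonical pathway, had 5.89 and 6.41 CPM in control and 13.8 and 14.2 CPM in UHRF1 KO, from 105 and 119 against 286 and 352 counts. Each UHRF1 KO library was at more than 2 times the level of each control. The log2 fold change was 1.18 (SE 0.13), or 2.27-fold higher (edgeR adjusted p = 1.15e-09), and it lay between 1.10 and 1.45 over 13 alternatives that all called it.

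CASP1 (ENSG00000137752, 105025443 to 105035250, minus strand), the protease at the end of the canonical pathway, was low in every library. It had 8 and 2 counts in control and 22 and 37 in UHRF1 KO, or 0.449 and 0.108 CPM against 1.06 and 1.49 CPM. The groups did not overlap, and the control libraries differed from each other by several-fold on these few counts. The log2 fold change was 2.20 (SE 0.51), or 4.60-fold higher (edgeR adjusted p = 4.09e-04). It was 3.49 without control replicate 1 (adjusted p = 4.83e-05) and 1.49 without control replicate 2 (adjusted p = 0.0198), with all 13 alternatives calling it at adjusted p of at most 0.0385. Of its 50-base stretches 4.37% also occur in CARD16, a near copy of its recruitment domain, so a small part of its reads is uncertain. CASP5 (ENSG00000137757, 104994235 to 105023168, minus strand), which lies between CASP4 and CASP1, had 0 counts in all 4 libraries, which allows up to 0.121 to 0.168 CPM by the floor of 3 counts in 1 library.

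The gasdermins, which form the pores, were not called different. GSDMD (ENSG00000104518, chromosome 8, 143553207 to 143563062, plus strand), the substrate of caspase-1 and caspase-4, had 26.4 and 24.6 CPM in control and 27.1 and 28.9 CPM in UHRF1 KO. Both UHRF1 KO libraries were above both controls, by a small margin, as were 41.6% of all genes tested. The log2 fold change was 0.14 (SE 0.081, 95% interval -0.02 to 0.30, edgeR adjusted p = 0.133), so a change of over 1.5-fold lies outside the interval. Its sign rests on the scaling, as it was -0.31 with trends removed and libraries recentred (edgeR adjusted p = 5.57e-04), while the other 12 alternatives gave 0.0772 to 0.917.

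GSDMB (ENSG00000073605, chromosome 17, 39904595 to 39919854, minus strand), a gasdermin that granzyme A can cut, had 3.70 and 5.39 CPM in control and 4.82 and 4.06 CPM in UHRF1 KO. The controls lay on either side of the UHRF1 KO libraries. The log2 fold change was -0.04 (SE 0.20, 95% interval -0.44 to 0.36, edgeR adjusted p = 0.862). GSDMC (ENSG00000147697, chromosome 8, 129748196 to 129786888, minus strand) had 0 and 5 counts in control and 4 and 15 in UHRF1 KO. The groups overlapped and the gene was not tested with the filter; without it the log2 fold change was 1.51 (edgeR adjusted p = 0.185). GSDMC was called only without control replicate 2, where the remaining control had 0 counts (edgeR adjusted p = 0.0285).

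**Figure D2:**
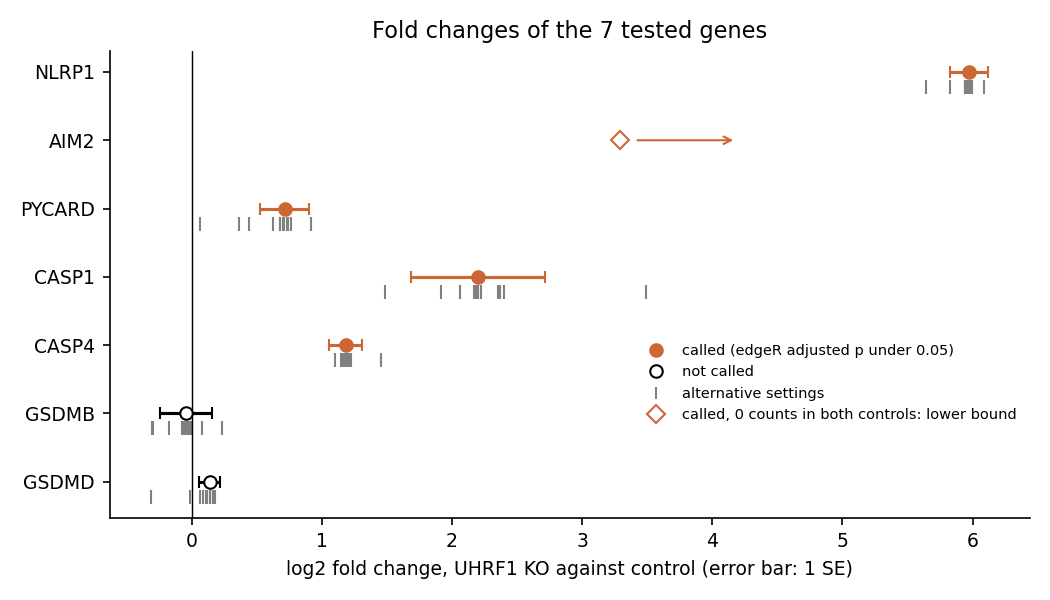
Log2 fold change of the 7 tested genes, UHRF1 KO against control; points are the fitted values with 1 SE, grey ticks the alternative settings, and the diamond of AIM2 a lower bound. NLRP1 stands at 5.97 with ticks close by, while the ticks of PYCARD reach down to 0.06 and those of GSDMB and GSDMD fall on both sides of 0.

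Levels of different genes were compared per kilobase of annotated exon, which understates genes with many alternative exons. In control the order was GSDMD at 4.98 CPM per kilobase, PYCARD at 2.35, CASP4 at 0.848, GSDMB at 0.770, CASP1 at 0.0752, NLRP1 at 0.0602 and GSDMC at 0.0459. CASP4 and GSDMB overlapped in control, as did CASP1, NLRP1 and GSDMC. In UHRF1 KO the order was GSDMD at 5.48, PYCARD at 3.82, NLRP1 at 3.80, CASP4 at 1.93, GSDMB at 0.752, AIM2 at 0.402, CASP1 at 0.345, GSDMC at 0.136 and NLRP3 at 0.0237. NLRP1 lay within the spread of PYCARD there (3.19 and 4.46), and AIM2 and CASP1 overlapped as well. GSDMD was thus the most abundant of these transcripts per length in both groups, and NLRP1 moved from the sixth to the third place. Summed over the 10 genes, the level was 41.4 and 41.2 CPM in control and 101.6 and 106.7 CPM in UHRF1 KO, most of the difference being NLRP1.

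**Figure D3:**
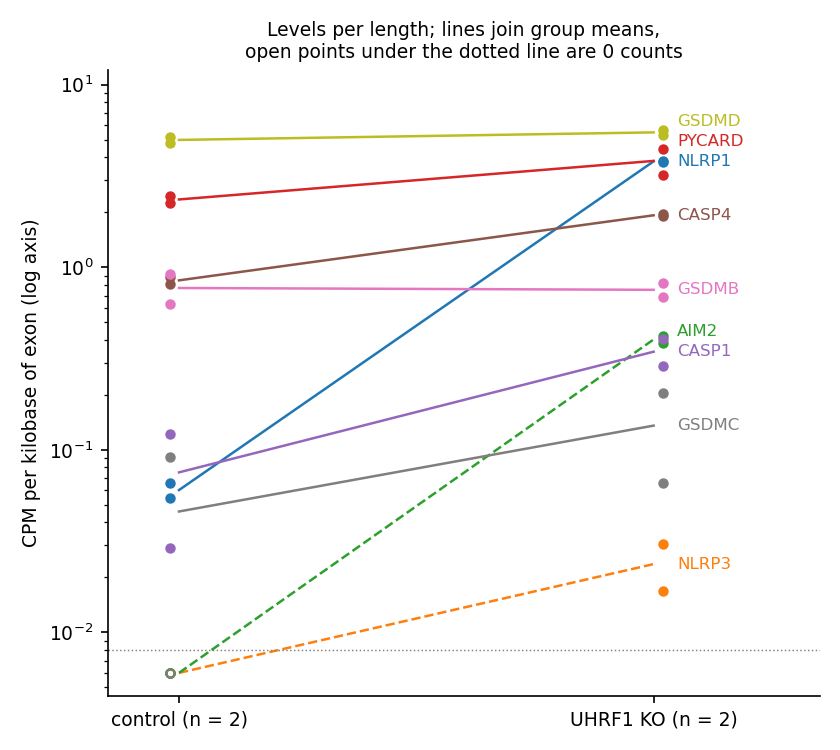
Level per kilobase of annotated exon on a log axis in control and UHRF1 KO; points are single libraries, lines join the means of 2 libraries (dashed where control is at 0 counts), and open points under the dotted line are 0 counts. The NLRP1 line rises from 0.0602 to 3.80 and crosses those of CASP4 and GSDMB, while the lines of GSDMD and GSDMB are nearly level.

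Other genes of the pathway were taken from lists written for this description, with up to 3 called genes of each named by the smallest adjusted p; further names were chosen after their values were seen. Across all genes tested the median log2 fold change was 0.02, with 32.0% called higher and 30.1% lower. Of 18 other sensors of the NLR and DNA-sensing families 8 were tested, 3 rose and 3 fell, with a median of 0.25. These counts were near the shares over all genes. IFI16, a DNA sensor related to AIM2, rose 2.65-fold from 11.1 ± 0.58 to 29.5 ± 0.57 CPM (edgeR adjusted p = 1.03e-14). NLRC5, the regulator of MHC class I genes, rose 1.97-fold to 26.9 ± 2.43 CPM, and NOD2, a sensor of bacterial peptidoglycan, had 0 counts in both controls, passed the filter through UHRF1 KO alone and was at least 12.8-fold higher. The 3 that fell were NLRP2, NLRX1 and CARD8, by 0.25, 0.44 and 0.16 on the log2 scale. CARD8, an inflammasome sensor with the same self-cutting domain as NLRP1, passed narrowly (edgeR adjusted p = 0.0451) and lost its call in 7 of 13 alternatives, 2 of them without 1 library: -0.12 without UHRF1 KO replicate 1 (adjusted p = 0.298) and -0.16 without control replicate 2 (adjusted p = 0.0781).

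Of 24 regulators of inflammasomes 18 were tested, 9 rose and 4 fell, with a median of 0.33. Over all genes tested 32.0% were called higher and 30.1% lower. Of the 9, 3 (CARD18, P2RX7 and GBP5) passed the filter through UHRF1 KO alone. The chaperone HSP90AB1 fell by 0.56 and BRCC3, which removes ubiquitin from NLRP3, by 0.70 on the log2 scale, and the co-chaperone SUGT1 by 0.52. Guanylate-binding proteins are a family in which some members coat cytosolic bacteria and bring caspase-4 to them. GBP2, GBP3, GBP4 and GBP5 rose, with log2 fold changes of 1.69, 1.41, 1.98 and 3.20. GBP1 was not called (0.23, edgeR adjusted p = 0.469). P2RX7, the ATP-gated channel known to trigger NLRP3, had 0 counts in both controls and 15 and 22 in UHRF1 KO, at least 9.75-fold higher. NINJ1, which ruptures the membrane after gasdermin pores have formed, rose 1.60-fold from 34.0 ± 0.33 to 54.3 ± 0.64 CPM (edgeR adjusted p = 6.88e-11). The size of that rise rests on the scaling. Its log2 fold change of 0.68 was 0.44 with trends removed and 0.14 with recentring added (edgeR adjusted p = 0.0497). With trends removed and libraries recentred 7 of the regulators were called lower. DPP8 and DPP9, the peptidases that hold NLRP1 inactive, had log2 fold changes of -0.16 (called, edgeR adjusted p = 0.00953) and 0.01 (not called, edgeR adjusted p = 0.839). DPP8 was no longer called without UHRF1 KO replicate 1 (-0.16, edgeR adjusted p = 0.0529) and without control replicate 2 (-0.10, edgeR adjusted p = 0.119), and its sign turned to 0.13 with trends removed (edgeR adjusted p = 0.0141). The DPP9 value was -0.39 with recentring added (edgeR adjusted p = 5.55e-11).

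The genes of cytokines and their antagonists were divided, and only IL1B and IL18 among those named here encode the caspase-1 substrates given above. Of 8 cytokine genes and antagonists 6 were tested and 4 rose, where 32.0% of all genes tested were called higher. With edgeR, DESeq2 or limma-voom 0 fell, and 0 fell at an unadjusted edgeR p under 0.05. Of the 4, IL1RN and IL33 passed the filter through UHRF1 KO alone and could hardly be tested without being higher, so the count and the list's median of 4.31 follow in part from the filter. IL1B rose 38.3-fold from 0.523 ± 0.054 to 20.2 ± 0.42 CPM and IL1A rose 26.5-fold from 0.687 ± 0.020 to 18.4 ± 0.95 CPM (edgeR adjusted p = 1.85e-21 and 1.87e-20). IL1RN, the receptor antagonist, had 0 and 1 counts in control and 116 and 106 in UHRF1 KO, a ratio of 177 (95% interval 31.5 to 7028, counting error only). Its fitted log2 fold change of 7.19 was 6.34 without control replicate 1 and 9.69 without control replicate 2, where the remaining control had 0 counts. IL33 rose by a log2 fold change of 3.89, or 3.30 without UHRF1 KO replicate 2. IL18, the other substrate of caspase-1, was not called (log2 fold change -0.07, edgeR adjusted p = 0.386), nor was its binding protein IL18BP (-0.03, edgeR adjusted p = 0.897). With trends removed and libraries recentred these 2 were called lower, at -0.25 and -0.45.

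Of 3 remaining gasdermin family genes, 2 were tested. GSDME, the substrate of caspase-3, was called 1.10-fold higher, from 68.5 ± 2.67 to 75.4 ± 0.31 CPM (edgeR adjusted p = 0.0224). That call was lost without control replicate 1 (log2 fold change 0.08, edgeR adjusted p = 0.237), without UHRF1 KO replicate 1 (0.14, edgeR adjusted p = 0.119) and when UHRF1 KO replicate 2 was left out (0.13, edgeR adjusted p = 0.150). PJVK was not called, and GSDMA had 0 counts in all 4 libraries. Of 12 other caspases and pyroptotic proteases 7 were tested, 4 rose and 2 fell, with a median of 0.30. The shares over all genes tested were 32.0% higher and 30.1% lower. Only 2 of the 7 rose with trends removed and libraries recentred. CASP10 and CASP8, initiators of death receptor signalling, rose 1.67-fold and 1.28-fold, and the initiator CASP9 rose by a log2 fold change of 0.45. CASP9 was no longer called with DESeq2 (0.43, adjusted p = 0.0778) or with trends removed and libraries recentred (0.12, edgeR adjusted p = 0.353). CASP2 fell by 0.38 on the log2 scale. CASP6 fell by 0.25, a call (edgeR adjusted p = 0.0316) that was lost when any 1 library was left out (edgeR adjusted p = 0.0510 without control replicate 1, 0.0754 without control replicate 2, 0.0752 without UHRF1 KO replicate 1, and 0.119 if UHRF1 KO replicate 2 was left out). Of the 7 tested genes 0 changed 2-fold.

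Of 14 transcription factor genes linked to inflammasome genes 12 were tested, 8 rose and 2 fell, with a median of 0.69. Among all genes tested 32.0% were called higher and 30.1% lower. NFKB2 and RELB, subunits of the non-canonical NF-kB pathway, rose 2.46-fold to 228.4 ± 10.4 CPM and 3.22-fold to 55.3 ± 5.34 CPM (edgeR adjusted p = 1.30e-22 and 1.94e-18). IRF1, an interferon regulatory factor, rose 2.98-fold from 17.0 ± 1.10 to 50.7 ± 2.70 CPM (edgeR adjusted p = 4.72e-18). The NF-kB subunit gene REL fell by 0.23 on the log2 scale. REL lost its call in 9 of 13 alternatives, among them without control replicate 2 (edgeR adjusted p = 0.315), without UHRF1 KO replicate 1 (edgeR adjusted p = 0.0847) and when UHRF1 KO replicate 2 was left out (edgeR adjusted p = 0.150), where it was -0.15, -0.25 and -0.22. IRF2, known to act on the GSDMD gene, was not called (log2 fold change 0.11, edgeR adjusted p = 0.268).

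**Figure D4:**
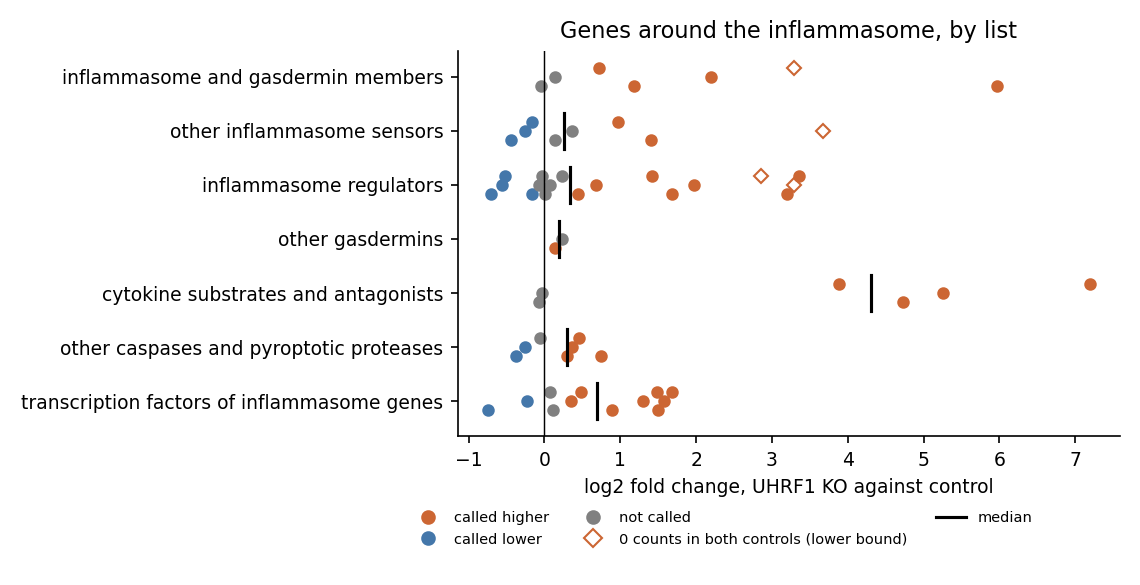
Log2 fold change, UHRF1 KO against control, of each tested gene of 7 lists, 1 row per list; orange points were called higher, blue lower and grey not called, open diamonds are lower bounds for genes at 0 counts in both controls, and black bars are medians of the lists (none is drawn for the first row). The cytokine row is split between points near 0 (IL18 and IL18BP) and points above 3, while the rows of other caspases and other gasdermins stay within 1 of 0.

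Because several of these genes are typical of myeloid cells, markers of other cell types were read in the same libraries. Of 12 myeloid markers, CD163, FCGR3A, AIF1 and C1QA had 0 counts in all 4 libraries and LYZ had 1 count in all, while PTPRC had 0 counts in both controls and 10 and 20 in UHRF1 KO. The summed level of the list was 5.28 to 6.73 CPM in control and 11.5 to 13.4 CPM in UHRF1 KO. Of the 2 that could be tested both were called higher, as were 32.0% of all genes tested. CD14 rose by a log2 fold change of 1.58 to 5.36 ± 0.28 CPM (edgeR adjusted p = 1.55e-07), or by 0.97 with libraries recentred. ITGAM was called at an edgeR adjusted p of 0.0341 (log2 fold change 0.50) and lost that call in 5 of 13 alternatives. Its log2 fold change was 0.23 without UHRF1 KO replicate 2 and 0.21 without control replicate 2. It was 0.47 with DESeq2 (adjusted p = 0.333) and 0.52 with limma-voom (adjusted p = 0.0509). With trends removed and libraries recentred the value was 0.15 (edgeR adjusted p = 0.519). Of 12 markers of lymphoid, endothelial, fibroblast and red cells, 3 were tested and 3 rose, while CD3E, CD2 and MS4A1 had 0 counts in all libraries. The sum was 4.71 and 6.52 CPM in control and 50.4 and 53.0 CPM in UHRF1 KO. Most of it was PECAM1, an adhesion molecule of endothelial cells, at 29.9 ± 0.89 CPM. The other endothelial markers were too low to be tested. VWF had 1 and 0 counts in control and 11 and 11 in UHRF1 KO, and CDH5 had 0 and 0 against 3 and 0. PECAM1 passed the filter through UHRF1 KO alone. The fibroblast markers COL1A1, a collagen chain, and LUM, a matrix proteoglycan, rose 4.13-fold from 3.78 ± 0.83 to 15.6 ± 1.17 CPM and 4.94-fold from 0.899 ± 0.558 to 4.49 ± 0.015 CPM (edgeR adjusted p = 6.48e-14 and 3.54e-08). For LUM the log2 fold change was 2.30, or 3.12 without control replicate 2. Of 9 A549 and epithelial markers 8 fell and EPCAM rose (log2 fold change 2.16), where 30.1% of all genes tested were called lower. AKR1B10, an aldo-keto reductase, fell by 2.02 on the log2 scale, from 3204 ± 53.5 to 792.4 ± 8.13 CPM (edgeR adjusted p = 3.89e-32), and NQO1, a quinone reductase, fell by 0.59 (edgeR adjusted p = 1.15e-17). The keratins KRT7, KRT8, KRT18 and KRT19 had 1949 to 52113 counts in every library and fell by 0.34 to 0.45 on the log2 scale. The part of other cell types in the results was not tested, and in these bulk libraries a rise in a few cells and a rise in all cells cannot be told apart.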

How the data were processed

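RNA-seq was done on 2 control and 2 UHRF1 KO libraries of A549, made with a SMARTER mRNA-Seq kit per the labels' protocols. The deposited table holds raw read counts per Ensembl gene; per the submitters' processing notes FastQC 0.10.1 and build GRCh38 were used, while for the aligner, counting tool, annotation and use of strand the sources used here give nothing. Table columns were assigned through the numbers in the sample titles; the short name of control 1 stands on both controls, so only the group of a control column is certain.

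The test was edgeR 4.0.16 under R 4.3.3 (filterByExpr with a minimum count of 10, TMM, robust quasi-likelihood test, two-sided, Benjamini-Hochberg over the 17030 genes tested, threshold 0.05). SEs are the log2 fold change over the root of F. Intervals of log2 fold changes were built from these SEs, so they include the spread between libraries that the quasi-likelihood test estimated. The interval of the IL1RN count ratio and the floors (3 counts) cover counting error only. Lengths are the union of GENCODE 29 exons, and shared sequence was counted as 50-base stretches. Libraries of a pair differed by more than counting noise (chi-square per degree of freedom 2.65 and 1.85). Alternatives were other scalings and filters, the replicate block, each library left out, DESeq2 1.42.0, limma-voom (limma 3.58.1), stricter thresholds, and removal of GC content and length trends. The steps were tested on simulated data. Named were the 10 genes, UHRF1, up to 3 called genes per list by adjusted p, tested next genes within 100 kb, and the 3 genes nearest to NLRP1 in log2 CPM (prior count 2). Some list genes are counted with their list and not reported here by name. The genes and lists were chosen with earlier results of these data known.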

Additional observations from a re-analysis of the deposited data

How the results depend on the processing

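NLRP1, CASP1 and CASP4 kept their direction and call in all 13 alternative fits, and AIM2 in the 12 that tested it. For CASP1 and AIM2 this is little support, since both passed the filter only through their counts in UHRF1 KO. PYCARD kept its direction in 13 and its call in 9. The number of the 10 genes called higher was 5 and ranged from 4 to 6 over all settings, leaving out each library in turn included. The number called lower was 0, and 1 (GSDMD) once each library was recentred after removal of its GC and length trends, which moved the median of all genes by -0.26 (log2). Values that changed sign were those of GSDMB, which ran from -0.30 without control replicate 1 to 0.23 without control replicate 2 and was 0.08 without UHRF1 KO replicate 2, and of GSDMD, at -0.011 with trends removed and -0.31 after recentring as well; the cause was not tested. With the replicate number as a block 5 of the genes were called higher and 0 lower; the differences between replicates 1 and 2 correlated at -0.01 between the groups over genes, and the labels give no other link between samples of the same number. Over all genes, 5445 were called higher and 5118 lower, 3543 and 8220 with recentring, and 2616 and 432 with a minimum of 2-fold. For CASP1, NLRP3, GSDMC and AIM2, with at most 59 counts over a group, depth limits what could be seen.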

Other observations

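Genes next to the 10 described did not move as one. IFI16, the next gene to AIM2 at a distance of 7329 bases, was called higher (log2 fold change 1.41, edgeR adjusted p = 1.03e-14). MIS12, a kinetochore gene 8613 bases from NLRP1, had 40.7 and 41.5 CPM in control and 38.2 and 36.6 CPM in UHRF1 KO (log2 fold change -0.14, edgeR adjusted p = 0.0734), so a change of the size seen in NLRP1 was not seen in the nearest tested gene. MIS12 was called lower without the filter (adjusted p = 0.0409) and with trends removed and libraries recentred (adjusted p = 3.16e-05). ORMDL3, a regulator of sphingolipid synthesis 1187 bases from GSDMB, was not called (0.10, edgeR adjusted p = 0.256) and was -0.30 with recentring (adjusted p = 5.25e-04). MROH6, 3125 bases from GSDMD, was called higher (0.62, edgeR adjusted p = 6.89e-04), but neither with DESeq2 (0.59, adjusted p = 0.0656) nor with recentring (0.21, adjusted p = 0.218). ZNF496, a zinc finger gene 84310 bases from NLRP3, fell by 0.23 on the log2 scale, but was not called with DESeq2 (-0.25, adjusted p = 0.0534). AC022973.4, an antisense gene 45413 bases from GSDMC, was not called.

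In the caspase cluster of chromosome 11, CARD16 had 1 and 0 counts in control and 8 and 11 in UHRF1 KO, and CARD18, a decoy of caspase-1, had 0 counts in both controls and 13 and 14 in UHRF1 KO, at least 7.22-fold higher. CARD17 had 0 counts in both controls and 2 and 0 in UHRF1 KO. CASP5, in the middle of the cluster, was the protein-coding gene of these with 0 counts throughout.

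The 3 genes closest to NLRP1 in level over the 4 libraries, by Euclidean distance of log2 CPM, were AFAP1-AS1 (distance 0.361), C5AR2 (0.611) and ANO9 (0.886). C5AR2 is a receptor of complement C5a and AFAP1-AS1 a long noncoding RNA. They lie on chromosomes 4, 19 and 11, away from NLRP1 on chromosome 17, and 4 libraries in 2 groups are too few to separate likeness of pattern from likeness of level and fold.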
